A study of Mus musculus with 28 samples.

Results

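Immediate early genes are switched on within minutes of a stimulus, without any new protein having to be made first, through transcription factors that already sit in the resting cell. Growth factors, cyclic AMP, stretch, wounding and tissue handling are all known to induce them. Most of their products are transcription factors, such as the zinc finger Egr proteins and the Fos, Jun and Atf proteins that pair up to form AP-1, and others are brakes on the same response, such as the phosphatase Dusp1. In the tooth germ, the growth factor signals that pass between epithelium and mesenchyme act through the same ERK kinase pathway that induces several of these genes.

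The group described here has 10 members of 52636 genes in the count table. They are Egr1, Egr2, Fos, Fosb, Jun, Junb, Ier2, Atf3, Dusp1 and Nr4a1, picked by name because Egr1 was higher at E14 than at E13 and differed widely between E14 teeth, which raised the question of whether the genes move together from tooth to tooth. The group was chosen on the E13 and E14 levels of Egr1, and the other members were named with earlier results of these data known. The differences between E13 and E14 are therefore described below, and no p-value is given for them. All 10 members passed the filter on low counts, which left 19101 genes.

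The libraries came from single first molar tooth germs of wild type C57BL/6JOlaHsd mouse embryos, with no treatment, dissected at the bud stage (E13, labelled E13.5), the cap stage (E14, labelled E14.5) and the bell stage (E16, labelled E16.5). There were 7 teeth from 7 embryos at E13, 7 teeth from 6 embryos at E14 and 7 teeth from 5 embryos at E16, so that some teeth shared an embryo. A separate table of estimated counts held E13 and E16 again together with 6 teeth from 6 wild type embryos at E15, and the other labelled E15 tooth was not analysed here. The E15 teeth were lower first molars submitted with their own protocol, and stage and preparation cannot be told apart for them. Total counts per tooth were 19187478 to 24109057 at E13, 23210069 to 25711785 at E14, 17814073 to 27115729 at E16 and 17572427 to 22792374 at E15. The left tooth of E16 embryo 3 had the lowest total and stood apart from all others on the first principal component of the variation within stages (93.8, against -29.1 to 14.46 in the other 20 teeth), and results that rest on it are given with and without it. All 49 markers of 9 cell types had counts at every stage, and the sums of the 6 dental epithelium markers (24129 to 31052 normalized counts at E14) and the 6 dental mesenchyme markers (60953 to 69480) fitted the label of a whole tooth germ. A whole tooth is measured, so that fewer cells of a type and less RNA per cell cannot be told apart.

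Stretches of 150 bases before the transcription start (RefSeq, GRCm38.p6, read along the gene's strand) are shown for 4 genes that moved with Egr1 among the E14 teeth and for Egr2, which did not. The capitals mark TGACG on either strand, the core of a cyclic AMP response element, and the CArG box, the site of serum response factor. None of the 5 stretches holds a base that the annotation calls exonic.
Fos, chr12:85473740-85473889: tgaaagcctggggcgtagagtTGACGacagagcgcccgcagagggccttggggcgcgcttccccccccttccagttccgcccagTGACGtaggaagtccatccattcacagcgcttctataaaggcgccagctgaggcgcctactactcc
Junb, chr8:84978749-84978898: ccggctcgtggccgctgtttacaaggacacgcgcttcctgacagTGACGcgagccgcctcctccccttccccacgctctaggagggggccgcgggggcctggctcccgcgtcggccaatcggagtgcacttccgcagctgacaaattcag
Nr4a1, chr15:101266696-101266845: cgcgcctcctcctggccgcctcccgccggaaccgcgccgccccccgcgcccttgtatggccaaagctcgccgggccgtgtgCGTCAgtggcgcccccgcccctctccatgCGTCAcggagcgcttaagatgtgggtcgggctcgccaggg
Jun, chr4:95052223-95052372: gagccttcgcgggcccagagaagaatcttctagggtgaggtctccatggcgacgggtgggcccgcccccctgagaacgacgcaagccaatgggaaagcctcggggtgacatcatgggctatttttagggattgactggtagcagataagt
Egr2, chr10:67537719-67537868: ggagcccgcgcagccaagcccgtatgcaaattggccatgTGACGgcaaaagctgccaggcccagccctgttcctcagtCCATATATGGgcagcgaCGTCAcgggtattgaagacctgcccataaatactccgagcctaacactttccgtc

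Windows of 250 bases were present for 8 of the 10 members (not Egr1 and Ier2), with 5 alternative windows for Egr2. TGACG on either strand stood in a window of 7 of the 8 genes (all but Jun), and in 17.8% of the 32851 windows of all genes. The longer palindrome TGACGTCA, which contains TGACG, stood in the Dusp1 window alone among the 8 and in 1.55% of all windows. A CArG box stood in windows of Egr2 alone among the 8, which has more windows than the others, and in 1.47% of all windows. These matches describe the letters only, and the known serum response element of a gene may lie further upstream than the window.

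The genes lie on several chromosomes (GRCm38). Egr1 is at chr18:34859823-34864984, Egr2 at chr10:67535475-67542188, Fos at chr12:85473890-85477273, Fosb at chr7:19302696-19310051, Jun at chr4:95049034-95052222, Junb at chr8:84974484-84978718, Ier2 at chr8:84661331-84662852, Atf3 at chr1:191170296-191218039, Dusp1 at chr17:26505590-26562128 and Nr4a1 at chr15:101254269-101274795. Exons of Jun, Junb and Dusp1 overlap those of Junos, Prdx2 and Ergic1 on the opposite strand, and because the strand setting of the counting is not given in the sources used here, reads from such a pair cannot be told apart.

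The Egr genes encode zinc finger factors that bind GC-rich sites, and Egr1 is the classical readout of ERK signalling. Egr1 had 133 to 306 normalized counts per tooth at E13 (median 223), 967 to 11472 at E14 (median 2188) and 617 to 1486 at E16 (median 927). All E14 and E16 teeth lay above all E13 teeth, while E14 and E16 overlapped. The spread among the E14 teeth was 11.9-fold from the lowest to the highest, against 2.29-fold at E13 and 2.41-fold at E16, and the left teeth of embryos 6 and 8 were the highest (9200 and 11472). Egr2, which is needed for myelination and hindbrain patterning, had 10.8 to 50.5 normalized counts at E13 (median 23.6), 302 to 471 at E14 (median 350) and 15.2 to 89.4 at E16 (median 74.1). The stage medians of Egr2 had the same order as those of Egr1, but its E14 teeth were within 1.56-fold of each other.

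**Figure D1:**
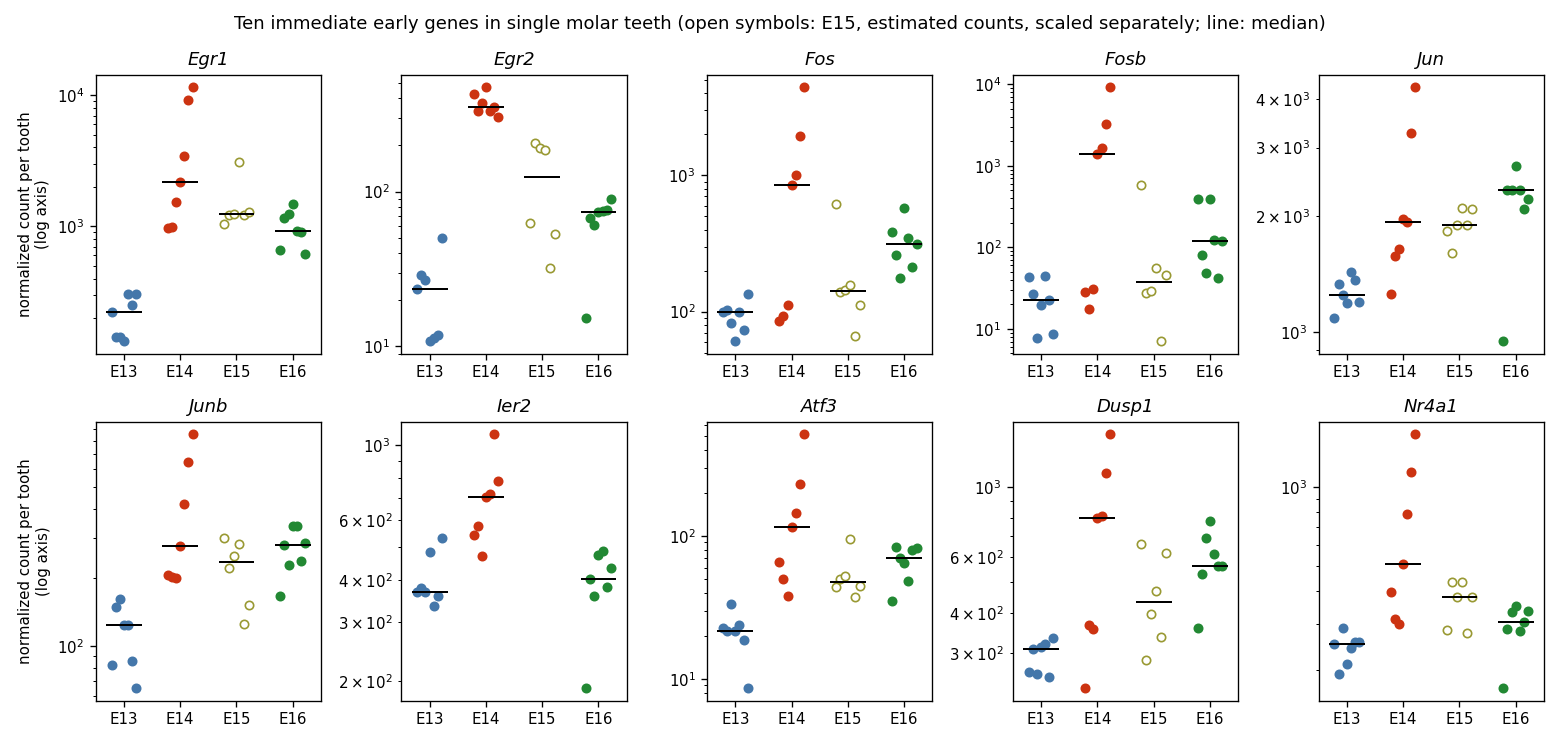
Normalized counts (log axis) of the 10 genes in single teeth at E13, E14, E15 and E16, with 1 point per tooth and a line at the median; open points are E15 estimated counts, scaled in a table of their own and without Ier2. E14 teeth are spread over 11.9-fold for Egr1 and 516-fold for Fosb but over 1.56-fold for Egr2.

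Fos and Fosb encode the Fos subunits of AP-1. Fos had 60.7 to 136 normalized counts at E13 (median 98.5), 84.8 to 4417 at E14 (median 845) and 177 to 580 at E16 (median 312). Fosb had 7.79 to 44.5 at E13 (median 22.6), 17.7 to 9131 at E14 (median 1377) and 42.2 to 391 at E16 (median 121). The E14 teeth fell into 2 separate clusters in both genes. In embryos 1, 2 and 3 Fos was between 84.8 and 111 and Fosb between 17.7 and 30.9, within their E13 ranges. In embryos 5, 6 (both teeth) and 8 Fos was at least 845 and Fosb at least 1377. The empty interval between the clusters was 7.57-fold for Fos and 43.2-fold for Fosb (counts + 1), and the 4 teeth of the upper cluster were also the 4 with the highest Egr1 at E14.

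The partner subunits Jun and Junb were spread less. Jun, which is abundant in resting tissue, had 1089 to 1427 normalized counts at E13 (median 1251), 1259 to 4288 at E14 (median 1927) and 949 to 2688 at E16 (median 2330). The low E16 value was that of the left tooth of embryo 3, and the other 6 E16 teeth had at least 2080. Junb had 65.3 to 160 at E13 (median 123), 200 to 857 at E14 (median 275) and 165 to 339 at E16 (median 278). In both genes the left teeth of E14 embryos 8 and 6 were the highest of all teeth. Atf3, a stress-induced factor that pairs with Jun proteins, had 8.62 to 33.4 at E13 (median 21.7), 38.1 to 515 at E14 (median 116) and 34.8 to 84.0 at E16 (median 69.7).

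The remaining members act outside AP-1. Ier2, a small nuclear protein of the early response, had 333 to 532 normalized counts at E13 (median 369), 471 to 1077 at E14 (median 701) and 192 to 485 at E16 (median 403). Dusp1, a phosphatase that switches off the stress kinases p38 and JNK, had 252 to 334 at E13 (median 309), 233 to 1462 at E14 (median 796) and 360 to 778 at E16 (median 565). Nr4a1, an orphan nuclear receptor, had 193 to 288 at E13 (median 252), 301 to 1588 at E14 (median 508) and 171 to 352 at E16 (median 305). The lowest E14 tooth was inside the E13 range for Fos, Fosb, Jun and Ier2, below it for Dusp1 (233 against 252) and above it for Egr1, Egr2, Junb, Atf3 and Nr4a1.

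Levels between genes were compared per kilobase of exon. At E14 the median normalized count per kilobase was highest for Jun (604), then Egr1 (488), Ier2 (461), Fos (359), Dusp1 (240), Fosb (221), Nr4a1 (145), Junb (119), Egr2 (103) and Atf3 (54.0). At E13 Jun (392), Ier2 (242) and Dusp1 (93.2) led, and Fosb was the lowest (3.61). The E14 ranges of every pair of neighbours in this order overlapped, and neighbours were not compared tooth by tooth. The variation between teeth of a stage, as edgeR's biological coefficient of variation, was 106% for Fosb, 73.6% for Fos, 54.9% for Egr1 and 53.1% for Atf3, and between 22.9% and 37.5% for the other 6. Relative to genes of like abundance this placed the members between percentile 91.5 (Ier2) and percentile 99.97 (Fosb) of all genes tested. Egr1 was chosen partly for its wide spread among E14 teeth, and the others were named with earlier results known. These percentiles are therefore described only. They come from 1 fit over the 3 stages and do not give the spread among E14 teeth alone. Egr2 was at percentile 95.8, but its SD of log2 counts was 0.225 among E14 teeth, against 0.81 (E13) and 0.85 (E16).

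The difference between E13 and E14 is the contrast that chose the group. All 10 genes were past the threshold and higher at E14, as were 11.3% of 19101 genes (8.47% were past it and lower). Because Egr1 was chosen on this contrast and the others with earlier results known, the count supports nothing. Mean normalized counts were 19.8 times as high at E14 for Egr1, 15.8 times for Egr2, 13.03 times for Fos, 89.6 times for Fosb and 7.74 times for Atf3, and between 1.73 and 3.56 times for Jun, Junb, Ier2, Dusp1 and Nr4a1. The ratios of medians were 9.79 for Egr1, 14.9 for Egr2, 8.58 for Fos, 61.0 for Fosb and 5.37 for Atf3. Without the left tooth of E14 embryo 8, the fitted log2 difference was 2.87 in place of 3.71 for Fos, 5.38 in place of 6.44 for Fosb and 2.31 in place of 2.94 for Atf3. The teeth of both stages did not overlap for 5 of the 10, which was the case for 6.43% of all genes in this direction. The members were picked by name, so that no threshold separates them from other genes.

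The comparison of E13 with E16 left out the E14 teeth but shares the E13 teeth with the choice of Egr1, which is therefore described only. Of the 9 other members 7 rose from E13 to E16 and none fell, where 21.6% of 19101 genes rose and 19.6% fell (edgeR quasi-likelihood test, Benjamini-Hochberg adjusted p below 0.05). Egr1 was 4.65 times as high at E16 by the means (log2 fold change 2.21 ± 0.47, SE). Egr2 rose by 1.504 ± 0.307 (adjusted p = 0.000319, edgeR). Fosb rose by 2.73 ± 1.08 (adjusted p = 0.0452, edgeR), Fos by 1.80 ± 0.65 (adjusted p = 0.0285, edgeR) and Atf3 by 1.62 ± 0.46 (adjusted p = 0.00639, edgeR). Smaller rises were those of Junb (1.24 ± 0.30), Dusp1 (1.00 ± 0.28) and Jun (0.75 ± 0.22), with edgeR adjusted p of 0.00193, 0.00590 and 0.00816. Nr4a1 (0.28 ± 0.29, adjusted p = 0.467, edgeR) and Ier2 (-0.05 ± 0.18, adjusted p = 0.837, edgeR) did not pass. The median over the 10 genes, Egr1 included, was 1.37, against -0.01 over all genes tested. All E16 teeth lay above all E13 teeth for Fos, Junb, Atf3 and Dusp1, 4 of the 9 other members against 9.86% of all genes, and for Egr1. Egr2 and Jun overlapped only through the left tooth of E16 embryo 3 (15.2 and 949). The other E16 teeth had at least 61.1 and 2080, against at most 50.5 and 1427 at E13. The share of all genes without that tooth was not computed.

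The call of Fosb was lost without the left tooth of E16 embryo 3 (log2 2.39, adjusted p = 0.0924, edgeR) and without the left tooth of E16 embryo 6 (2.39, adjusted p = 0.0976, edgeR), and that of Fos without the latter (1.61, adjusted p = 0.0608, edgeR) and without the right tooth of E13 embryo 5 (1.71, adjusted p = 0.0531, edgeR). With the teeth of an embryo summed, the call of Fosb was lost as well (2.79, adjusted p = 0.0638, edgeR). The calls of the other 6 genes held without the left tooth of E16 embryo 3, with log2 changes of 1.69 for Egr2 and 0.89 for Jun. The Fosb call was also lost when any 1 of the 7 E13 teeth was left out. Markers of the cell types moved along this contrast, 18 of 45 tested rising and 13 falling, and their part in the result was not tested. All 6 macrophage markers and all 6 dental epithelium markers rose, with summed macrophage markers of 915 to 1388 normalized counts at E13 and 1687 to 3388 at E16. Of the 6 dental mesenchyme markers 4 fell, and the median sums went from 70105 to 40443 for dental mesenchyme, from 3639 to 510 for cartilage and from 6805 to 1254 for red cells. The left tooth of E13 embryo 7 had 27558 summed normalized counts of 6 skeletal muscle markers, against 781 to 4497 in the other 6, and without that tooth the same members were called apart from Fosb.

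From E14 to E16, which shares the E14 teeth with the choice of Egr1, 6 of the 9 other members fell and none rose. Of 19101 genes 13.1% fell and 15% rose (edgeR). Earlier results of these data were known when these 9 were named, so that their falls and p-values are not independent of the choice. Egr2 fell by 2.50 ± 0.27 on the log2 scale (adjusted p = 1.28e-07, edgeR) and was the only member whose E16 teeth all lay below its E14 teeth (4.95% of all genes). Fosb (-3.71 ± 0.93), Fos (-1.91 ± 0.61), Atf3 (-1.32 ± 0.42), Nr4a1 (-1.29 ± 0.28) and Ier2 (-0.84 ± 0.18) fell with edgeR adjusted p between 0.000715 and 0.0197. Junb (-0.59 ± 0.29), Dusp1 (-0.33 ± 0.27) and Jun (-0.10 ± 0.22) did not pass. The calls of Fos and Atf3 were lost without the left tooth of E14 embryo 8, and also with the teeth of an embryo summed (edgeR adjusted p of 0.0690 and 0.0589). Of 45 tested cell type markers 10 rose and 6 fell along this contrast, with median sums of 26684 and 54667 for dental epithelium and 64872 and 40443 for dental mesenchyme at E14 and E16, and their part in the result was not tested. Egr1 was 0.235 times as high at E16 as at E14 by the means and 0.424 times by the medians.

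The choice of members had not used the 6 E15 teeth, but their comparison with E13 shares the E13 teeth with the choice of Egr1. In the table of estimated counts, which does not list Ier2, all 8 other members rose from E13 to E15, where 18.3% of 13447 genes rose and 8.49% fell (edgeR). Egr1 had 1035 to 3107 normalized counts at E15 (median 1232) and was 7.37 times as high as at E13 by the means (log2 fold change 2.92 ± 0.27), a description only. Egr2 had 31.9 to 206 (median 124) and rose by 2.52 ± 0.45 (adjusted p = 0.000190, edgeR). Jun, Junb, Atf3, Dusp1 and Nr4a1 rose by 0.62 to 1.45 on the log2 scale. All E15 teeth lay above all E13 teeth for Jun and Atf3, 2 of the 8 other members against 8.02% of all genes, and for Egr1. Of 38 tested cell type markers 12 rose and 9 fell from E13 to E15, among them all 6 of dental epithelium and all 5 tested of macrophages rising and 3 of 6 of dental mesenchyme falling, and their part in the result was not tested. Fos (1.32 ± 0.39) and Fosb (2.36 ± 0.80) rested on the right tooth of E15 embryo 1, and without it their log2 changes were 0.59 and 0.48, with edgeR adjusted p of 0.115 and 0.593. The call of Fosb held in 12 of 17 fits, and the others that lost it each left out a single E13 tooth.

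The right tooth of E15 embryo 1 had 617 normalized counts of Fos and 578 of Fosb, against at most 155 and 55.9 in the other 5 E15 teeth. Its Egr1 count was the lowest of the 6 (1035). The tooth with the highest Egr1, the left one of E15 embryo 5 (3107), had 155 counts of Fos and 55.9 of Fosb.

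Between E15 and E16 none of the 9 measured members passed the test in edgeR or in DESeq2, where 3.64% of 13447 genes rose and 2.69% fell (edgeR, adjusted p). Before adjustment 3 members (Egr1, Egr2 and Nr4a1) had an edgeR p under 0.05, and the share of all genes at that threshold is not given here. The log2 differences were -0.69 ± 0.25 for Egr1, -0.98 ± 0.42 for Egr2 and 0.53 ± 0.38 for Fos. Without the right tooth of E15 embryo 1, Fos (1.26, adjusted p = 0.00663, edgeR) and Fosb (2.33, adjusted p = 0.0237, edgeR) rose from E15 to E16.

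Whether the genes moved together was asked by a slope on Egr1, the log2 change of a gene for each log2 change of Egr1 between teeth of the same stage, fitted to all genes. The spread of Egr1 at E14 was part of the choice of the group, and the 9 other members were named with earlier results of these data known. The members' slopes and correlations that include E14 teeth, here and below, and their p-values are therefore not independent of the choice. With the 21 teeth of E13, E14 and E16, 16 of 19100 genes (0.0838%) rose with Egr1 and 30 (0.157%) fell with it, and 7 of the 9 other members were among the 16. The fitted slope was 1.65 ± 0.34 for Fosb (adjusted p = 0.0343, edgeR), 1.23 ± 0.17 for Fos (adjusted p = 0.000651, edgeR) and 0.70 ± 0.13 for Atf3 (adjusted p = 0.0145, edgeR). For Fosb and Fos it spans the empty interval between their E14 clusters and is not a rate that held at every doubling. In E14 embryos 1, 2 and 3 Egr1 was 967, 991 and 1522, while Fosb was 28.6, 17.7 and 30.9. The slopes of Nr4a1 (0.54 ± 0.07), Dusp1 (0.54 ± 0.07), Junb (0.46 ± 0.10) and Jun (0.39 ± 0.06) were lower, with edgeR adjusted p between 0.000199 and 0.0395. Ier2 (0.21 ± 0.07, adjusted p = 0.198, edgeR) and Egr2 (-0.04 ± 0.13, adjusted p = 0.938, edgeR) did not pass. Without the left tooth of E14 embryo 8, 9 genes in all were called, and of the members Fos, Dusp1 and Nr4a1 were still among them. Without the tooth of E14 embryo 1 or of embryo 2, Fosb, Junb and Atf3 were lost, and Fos, Jun, Dusp1 and Nr4a1 were still called. With the teeth of an embryo summed, 6 members were called and Junb was lost (adjusted p = 0.129, edgeR). Fos, Dusp1 and Nr4a1 were called whichever single tooth was left out, while the call of Junb was lost without any 1 of the 7 E14 teeth.

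**Figure D2:**
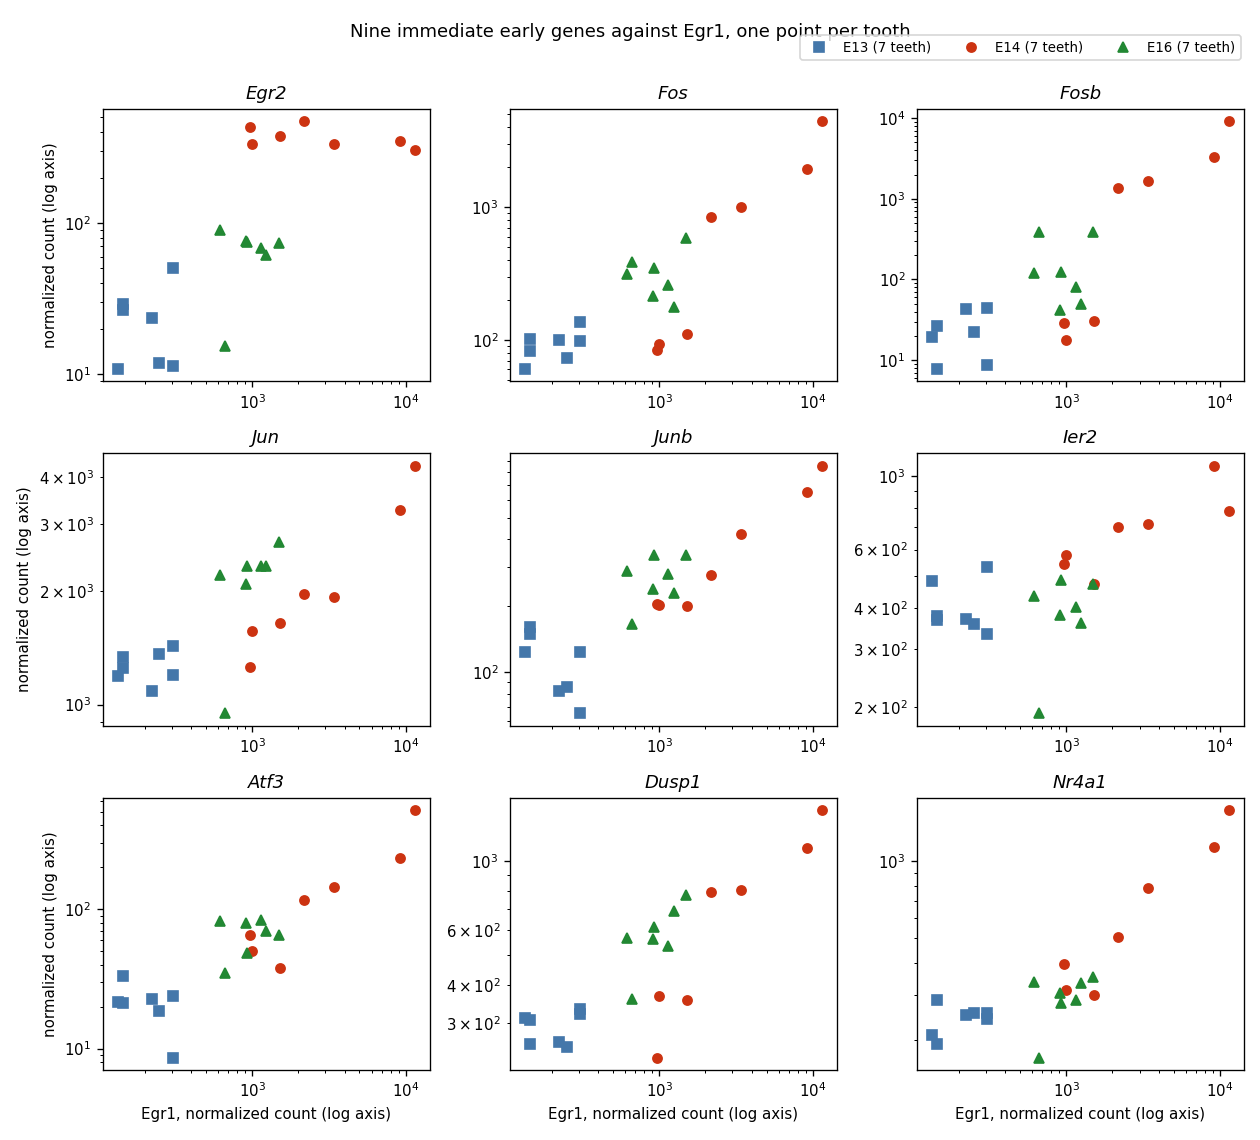
Normalized counts of 9 genes against those of Egr1 (both log axes), with 1 point per tooth of E13, E14 and E16. Among the 7 E14 teeth, in which Egr1 ran from 967 to 11472, all genes but Egr2 were highest in 1 of the 2 teeth with the most Egr1.

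The E14 teeth alone, a fit added after the data had been seen, gave the same 7 members. They stood among 17 genes of 16081 (0.106%) that rose with Egr1, and 4 genes (0.0249%) fell with it. These shares rest on the tooth of embryo 3, without which 246 genes rose with Egr1 and 154 fell with it of 16174. The slopes were 1.91 ± 0.29 for Fosb, 1.44 ± 0.15 for Fos, 0.85 ± 0.10 for Atf3, 0.61 ± 0.06 for Nr4a1, 0.61 ± 0.07 for Dusp1, 0.59 ± 0.05 for Junb and 0.42 ± 0.04 for Jun, with edgeR adjusted p between 6.07e-05 and 0.0139. Those of Fosb and Fos again span the empty interval between their clusters. The slope of Ier2 was 0.23 ± 0.05 (adjusted p = 0.121, edgeR) and that of Egr2 was -0.09 ± 0.06 (adjusted p = 0.552, edgeR). Without the left tooth of embryo 8, Fos, Jun, Junb and Nr4a1 were still called and Fosb, Atf3 and Dusp1 were not. Without the tooth of embryo 1 or of embryo 2 Fosb alone of the 7 was lost, and without the tooth of embryo 3 Ier2 was called as well.

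In the E13 and E16 teeth, 0 of 18342 genes were called with or against Egr1 by edgeR (1828 genes had an unadjusted p under 0.05), and no member had one. Their slopes there were between -0.20 (Junb) and 0.30 (Fos). At E15 edgeR called 0 of 12205 genes (602 had an unadjusted p under 0.05). There the slope of Atf3 was 0.76 ± 0.30 (adjusted p = 0.812, edgeR) and that of Fos was -0.67 ± 0.61. Egr1 itself was spread less outside E14 (SD of log2 counts 0.52 at E13 and 0.46 at E16, against 1.45 at E14). The difference between the slope at E14 and that at E13 and E16, tested directly in edgeR, passed adjustment for 0 of 19100 genes, with 1265 at an unadjusted p under 0.05. The unadjusted p of this difference was 0.00139 for Junb, 0.00309 for Fos, 0.00444 for Atf3, 0.0219 for Nr4a1 and 0.0300 for Fosb, and it was 0.0617 for Dusp1, 0.380 for Jun, 0.382 for Egr2 and 0.627 for Ier2, with adjusted p of at least 0.729 for all 9.

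**Figure D3:**
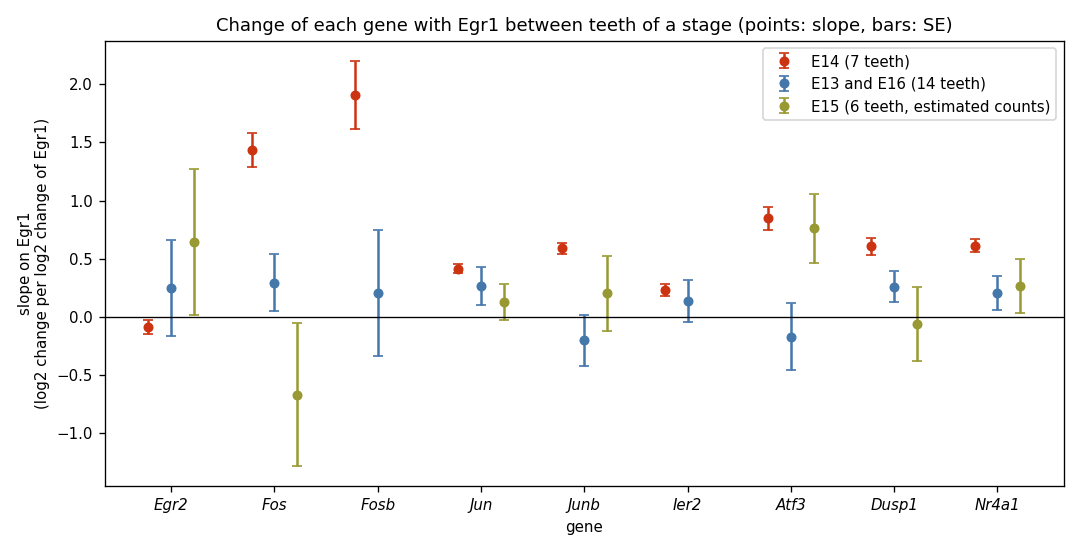
Slope of 9 genes on Egr1 between teeth of a stage (log2 change for each log2 change of Egr1; points with SE bars) at E14, at E13 and E16 together, and at E15, where Fosb did not pass the filter on low counts and Ier2 was not listed. The E14 slopes of Fosb (1.91) and Fos (1.44) are the steepest and span the empty interval between their separate clusters of E14 teeth. The E13 and E16 slopes lie between -0.20 and 0.30.

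With teeth of an embryo averaged, so that 18 embryos counted once each, the correlation of deviations from the stage mean was computed for 19100 genes. Pearson's r with Egr1 was 0.88 for Nr4a1 (Spearman's rho 0.77), 0.86 for Dusp1 (0.77), 0.79 for Jun (0.78), 0.69 for Atf3 (0.55), 0.64 for Junb (0.40), 0.49 for Ier2 (0.59) and 0.02 for Egr2 (0.07). The median r of all genes was 0.02. The permutation p of r within stages was 0.00015 for Jun, 0.00049 for Dusp1 and 0.00096 for Nr4a1, and after adjustment over all genes it was 0.0628, 0.0851 and 0.106, so that none passed. The p of rho was 0.00054 for Jun, 0.0041 for Dusp1 and 0.00232 for Nr4a1, with adjusted values of 0.106, 0.200 and 0.172. Without the 2 embryos farthest from the median of Egr1, E14 embryos 6 and 8, r was 0.60 for Dusp1, 0.51 for Jun, 0.51 for Nr4a1, 0.02 for Atf3 and -0.15 for Junb, so that the pooled relation of Atf3 and Junb over the 3 stages rested on those embryos. For Fos and Fosb, with their separate clusters at E14, no correlation that includes E14 is given.

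Within the 6 E14 embryos r was 0.98 for Junb, 0.97 for Jun, 0.96 for Nr4a1, 0.94 for Dusp1, 0.93 for Atf3, 0.81 for Ier2 and -0.54 for Egr2. For Jun the exact permutation p of 0.00139 was the smallest that the 720 orders of 6 embryos can give, and its adjusted value over all genes was 0.442. Spearman's rho was 1.00 for Jun (exact permutation p = 0.00278), 0.94 for Dusp1 (exact permutation p = 0.0167), 0.77 for Junb, Nr4a1, Atf3 and Ier2 (exact permutation p = 0.103) and -0.43 for Egr2, with adjusted values of at least 0.474. The exact permutation p of r was 0.00417 for Dusp1, 0.00833 for Junb and 0.0111 for Nr4a1 and Atf3, with adjusted values of at least 0.482. Without the 2 embryos farthest from the median of Egr1, r was 0.88 for Jun, 0.88 for Dusp1, 0.82 for Junb, 0.55 for Nr4a1 and 0.53 for Atf3. Within the 7 E13 embryos r was between -0.72 (Junb) and 0.39 (Nr4a1) for these 7 genes, and within the 6 E15 embryos Atf3 had r = 0.92, which became 0.02 without the 2 farthest embryos.

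Side differed along the same axis at E14. The 2 left teeth had the highest counts of Egr1 (9200 and 11472, against at most 3426 in the 5 right teeth) and of every other member except Egr2. In embryo 6, the only E14 embryo with both teeth, the left tooth had 2.69 times the Egr1 of the right one, 1.94 times the Fos, 1.95 times the Fosb, 1.70 times the Jun and 1.05 times the Egr2. With side as a factor in the fit of the 3 stages, the slopes of Fos, Jun, Dusp1 and Nr4a1 were still called and those of Fosb, Junb and Atf3 were not. In E16 embryos 6 and 8 the left tooth had 7.96 and 2.86 times the Fosb and 3.27 and 1.47 times the Fos of the right, but 1.199 and 0.677 times the Egr1. With 2 left teeth at E14 no value within that side was possible, and 5 right teeth are under the 6 embryos required for a correlation.

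**Figure D4:**
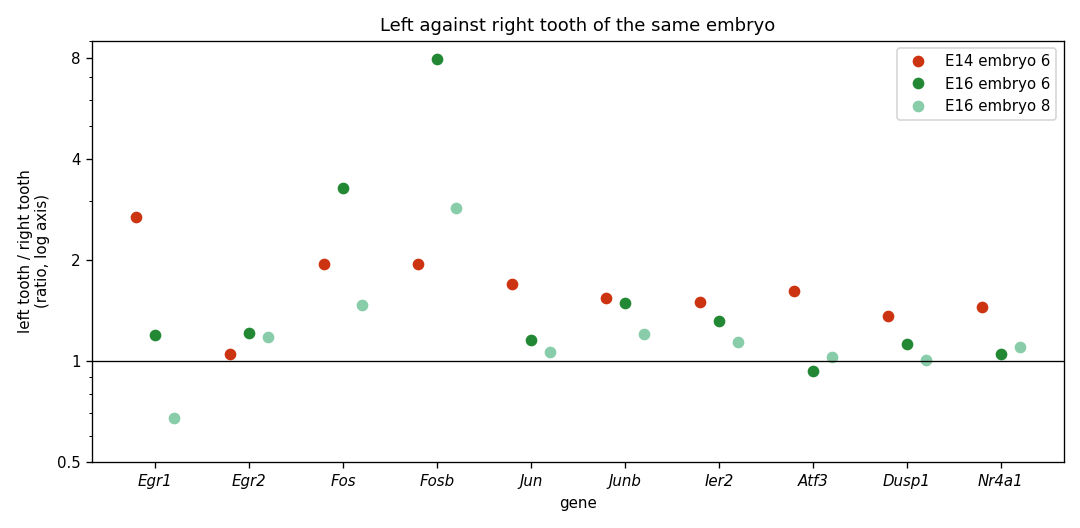
Ratio of the left to the right tooth (log axis) for 10 genes in the 3 embryos of which both teeth were sequenced. In E14 embryo 6 all members but Egr2 (1.05) were between 1.37 and 2.69 times as high in the left tooth, and in both E16 embryos Fos and Fosb were higher on the left.

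The other genes that rose with Egr1 among the E14 teeth included further early-response genes. Of 40 tested genes of a list of other early-response genes 4 passed, with none falling: Zfp36 (0.60 ± 0.05), which destabilizes short-lived mRNAs, Ccn1 (0.59 ± 0.04), a secreted matrix protein, Socs3 (0.43 ± 0.06), an inhibitor of cytokine signalling, and Nfkbiz (0.33 ± 0.04), a cofactor of NF-kappaB. The list's median slope was 0.09, against 0.00 for all genes. The lowest slopes of the list were those of Klf10 (-0.13 ± 0.06), Egr3 (-0.11 ± 0.06) and Ier5 (-0.11 ± 0.04), none of which passed. Of 15 tested AP-1 and Maf family genes only the 5 members Fos, Fosb, Jun, Junb and Atf3 were called. Of 12 ERK feedback genes, such as the Sprouty and ERK phosphatase genes, 0 were called (edgeR), with slopes from -0.13 (Spry4) to 0.09 (Dusp5). Of 14 heat-shock genes, and of 10 regulators and co-repressors of Egr1, 0 were called as well, with none of the regulators and 4 heat-shock genes (Hspe1, Dnaja1, Bag3 and Dnajb1) at an unadjusted p under 0.05. At that threshold in edgeR stood 2110 of all genes tested (13.1%), and 20 of the 40 other early-response genes.

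Of 39 tested markers of 9 cell types edgeR called 0 with or against Egr1 among the E14 teeth. An unadjusted p under 0.05 was found for 5 of them, and for 13.1% of all genes tested. Their sums over the 7 teeth had ranges of 24129 to 31052 (dental epithelium), 60953 to 69480 (dental mesenchyme), 2663 to 4184 (red cells), 6580 to 8583 (endothelium), 1501 to 2062 (macrophages), 722 to 1544 (skeletal muscle) and 269 to 359 (Schwann cells and neurons). The osteoblast markers summed to 15139 in the left tooth of embryo 8, which had the most Egr1, and to 1286 to 4774 in the other 6, and the cartilage markers to 2770 there and 1308 to 2551 elsewhere. The part of these cells in the level of that tooth was not tested, and the tooth next in Egr1, the left one of embryo 6, had 3204 and 1470.

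The genes outside the group with a pattern most like Egr1, by r over the 18 embryos among protein-coding genes with a mean of at least 50 normalized counts, were Ccn1 (0.90), Zfp36 (0.87), Ankrd17 (0.85), Dennd1a (0.84), Pak1ip1 (0.83), Nfkbiz (0.83), Usp6nl (0.79), Socs3 (0.79), Eef1b2 (0.79) and Ppp1r15a (0.78). Among these the slope on Egr1 was called by edgeR for Ccn1, Zfp36, Nfkbiz, Socs3 and Ppp1r15a, with slopes between 0.28 and 0.60 over the 3 stages, and was 0.05 to 0.13 for the others.

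The related lists were also followed across stages. From E13 to E14, the contrast that chose the group, 24 of 41 other early-response genes rose and 2 fell, with Egr3 (5.76 ± 0.29) highest. Of the 12 ERK feedback genes 7 rose and 0 fell. Of 14 heat-shock genes 4 rose and 0 fell, and of 10 regulators and co-repressors 3 rose and 0 fell. Over all 19101 genes 11.3% rose and 8.47% fell (edgeR). The lists were chosen with earlier results known, so these counts are described only. Over all 19101 genes 21.6% rose and 19.6% fell from E13 to E16, and 15% rose and 13.1% fell from E14 to E16 (edgeR). From E13 to E16, 23 of 41 other early-response genes rose and 4 fell, with Egr3 (2.08 ± 0.27), Npas4 (1.62 ± 0.47) and Cebpb (1.47 ± 0.22) highest and Nr4a3 (-1.28 ± 0.23) and Plk2 (-0.94 ± 0.09) lowest among those that passed. The list's median was 0.54, against -0.01 over all genes. From E14 to E16 11 of these 41 fell, led by Egr3 (-3.68 ± 0.26) and Arc (-1.96 ± 0.33), and 4 rose. Of the 12 ERK feedback genes 3 rose from E13 to E16 (Etv4, 1.92 ± 0.19; Dusp5, 1.68 ± 0.23; Dusp6, 0.36 ± 0.14) and 11 fell from E14 to E16, all but Dusp2 (-0.26 ± 0.23). Heat-shock genes rose in 7 of 14 cases from E13 to E16, with Hspb1 (2.78 ± 0.25) and Hspa1a (2.51 ± 0.32) highest, and fell in 1 case from E14 to E16 (Hspd1, -0.39 ± 0.10) while 4 rose. Among the 10 regulators and co-repressors of Egr1, Nab1, a co-repressor of Egr proteins, rose by 1.24 ± 0.07 from E13 to E16 and Elk4 by 0.35 ± 0.08, and the rest did not pass.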

How the data were processed

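For E13, E14 and E16, the authors deposited raw counts of reads per Ensembl gene (bcl2fastq 2.17.1.14, Trimmomatic, STAR and HTSeq on GRCm38, per the submitters' processing notes). For E15, the authors deposited a table with estimated counts (expected counts) (Trimmomatic 0.39, Salmon 0.99.0), which also holds the E13 and E16 teeth; these were rounded to whole numbers. Libraries were made with the Ovation Mouse RNAseq system. The strand setting of the counting is not given in the sources used here. Depth per tooth is given with the data.

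Gene symbols came from GENCODE M21. Genes were filtered with filterByExpr, scaled with TMM and tested with edgeR 4.0.16 (quasi-likelihood, 1 fit over all stages of a table, Benjamini-Hochberg over all genes tested, adjusted p below 0.05). DESeq2 1.42.0 was an alternative. Normalized counts shown were divided by DESeq2 size factors. Slopes on Egr1 used its log2 TMM count centred within each stage. Correlations used log2(normalized count + 1), teeth of an embryo averaged, with 100000 permutations within stages, exact within a stage. Separate clusters were called where a gap of more than 4-fold left at least 2 teeth on each side. P-values measure the spread between teeth, some of which share an embryo. The E13 column without an embryo number was used as a left E13 tooth of an embryo of its own. The fits were tested on simulated data. R 4.3.3 and Python 3.11.15 were used. The members and the gene lists were chosen with earlier results of these data known. Genes named are the members, the list genes that passed or had the 3 highest or lowest values, and the 10 genes most like Egr1. Alternatives were other scaling, no filter, summing teeth of an embryo, side, the first principal component, an embryo-number block, the estimated counts and leaving out each tooth.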

Additional observations from a re-analysis of the deposited data

Results flagged for a closer look

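In 39 groups of 6 or 7 teeth, that is each member at each stage, 11 values lay farther from their nearest neighbour than Dixon's 95% limit. The members share the same teeth and the counts were not put on a log scale. The flags are therefore not independent, and their number cannot be set against the nominal 1 in 20 groups. The left tooth of E14 embryo 8 stood above the others for Fos (4417 normalized counts, the next at 1946), Fosb (9131, the next at 3263) and Atf3 (515, the next at 232). The right tooth of E15 embryo 1 stood above the others for Fos (617, the next at 155) and Fosb (578, the next at 55.9). The left tooth of E15 embryo 5 stood above the others for Egr1 (3107, the next at 1282) and Atf3 (95.8, the next at 52.2). The left tooth of E16 embryo 3, the library apart from the rest, stood below the others for Egr2 (15.2, the next at 61.1), Jun (949, the next at 2080), Ier2 (192, the next at 359) and Nr4a1 (171, the next at 281). These values differ in their genes, with Fos and Fosb without Egr1 at E15 embryo 1, Egr1 and Atf3 without Fos and Fosb at E15 embryo 5, and all 3 of Fos, Fosb and Atf3 together with the highest Egr1 at E14 embryo 8. No explanation was tested.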

How the results depend on the processing

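The counts of genes called moved with the setting as follows. With the embryo number as a replicate block, the genes changed between E13 and E16 numbered 5210 (7887 without it) and the genes changed between E13 and E14 numbered 1677 (3767 without it), and Fos, Fosb, Jun, Junb, Atf3 and Dusp1 were no longer called between E13 and E16 while Nr4a1 turned to -0.43. Between E14 and E16 the block removed Fos and added Junb. Embryos of the same number at different stages were different animals, and the labels do not say what the numbers record. Over 11 pairs of equal number, r across genes was -0.0883 to 0.211, and 4 were best with their own number. The estimated counts gave 4889 genes between E13 and E16. Without single teeth the counts were 7227 to 9366 (E13 to E16), 4836 to 6605 (E14 to E16), 3077 to 3787 (E13 to E14), 3028 to 4592 (E13 to E15) and, for the genes changed between E15 and E16, 671 to 1382 (highest without the left tooth of E16 embryo 3, 851 with all).

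The 46 genes associated with Egr1 became 0 with E13 and E16 teeth only, with the estimated counts and with E15 teeth only, 21 with E14 teeth only (24 with DESeq2 size factors, 17 with teeth of an embryo summed), 23 with teeth of an embryo summed over all stages and 221 with the first principal component as a covariate. Without single teeth they were 9 (without the left tooth of E14 embryo 8) to 400 (E14 teeth only, without the tooth of embryo 3). The 35 genes correlated with Egr1 over embryos became 23 with Spearman's rho, 74 with each tooth as a point, 0 in E13 and E16 embryos only, 0 without the 2 farthest embryos and 0 to 79 without single embryos.

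These directions turned. The correlation of Egr1 and Egr2 was -0.0022 with a pseudocount of 10 and -0.12 to 0.13 without single embryos. In E13 and E16 embryos only, that of Egr1 was -0.0071 with Fosb, -0.32 with Junb and -0.19 with Atf3, and with Junb it was -0.15 without the 2 farthest embryos. Without single teeth the log2 change of Ier2 between E13 and E16 was -0.10 to 0.075 and that of Jun between E14 and E16 -0.19 to 0.15. The slope of Egr2 was 0.25 with E13 and E16 teeth only, 0.43 with the estimated counts, 0.65 at E15 and -0.082 to 0.014 without single teeth. The slope of Fos was -0.051 with the estimated counts and -0.67 at E15, of Fosb -0.45 with the estimated counts, of Junb -0.20 (E13 and E16 only) and -0.10 (estimated counts), of Atf3 -0.17 (E13 and E16 only) and of Dusp1 -0.061 (E15). The causes were not tested. Each stage has 5 to 7 embryos, and the spread between teeth, not counting error, sets the errors.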

Other observations

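The 17 genes that rose with Egr1 among the E14 teeth held 7 members, 4 genes of the other early-response list and 6 genes of neither, which were named after their values had been seen. These were Ppp1r15a (0.45 ± 0.06, the regulatory subunit of an eIF2-alpha phosphatase), Tcim (0.29 ± 0.05), Rmrp (0.29 ± 0.04, an RNA subunit of RNase MRP), Arrdc3 (0.25 ± 0.04), Dkk1 (0.24 ± 0.04, a secreted inhibitor of Wnt signalling) and the linker histone gene Hist1h1c (0.19 ± 0.02), as slopes on the log2 scale with edgeR adjusted p between 0.00242 and 0.0339. The 4 that fell were the pseudogene Gm15500 (-0.72 ± 0.06), Gm20045 (-0.49 ± 0.08), Gm45073 (-0.32 ± 0.05) and 1 gene identifier that is not in the annotation.

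The embryo numbers in the labels followed the level of these genes at E14. For Egr1, Fos and Jun the embryo with the higher number had the higher count in 15 of 15 pairs of E14 embryos, and for Fosb and Dusp1 in 14 of 15, whereas for Egr2 this held in 5 of 15. For Egr1 it held in 8 of 15 pairs at E13, in 5 of 10 at E16 and in 11 of 15 at E15. The labels do not say what the numbers record, and no test was made.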
